A study of Mus musculus with 28 samples.

Results

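The cytosolic ribosome is built from ribosomal RNA and a large set of proteins, each with a gene of its own, named Rpl for the large (60S) subunit and Rps for the small (40S) subunit. Rows of the deposited count tables were taken as members where the gene symbol had the form Rpl or Rps, a number and at most one letter, or was Rplp0, Rplp1, Rplp2 or Rpsa. That rule found 79 of 26581 listed genes, 48 of the large and 31 of the small subunit. It includes the paralogs Rpl3l, Rpl39l and Rps27l, and it leaves out Fau, Gnb2l1 (the scaffold protein RACK1) and Rpl22l1, which are counted below in other lists. Expression values played no part in the rule.

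Most ribosomal protein mRNAs begin with a run of pyrimidines at their cap, the 5′ terminal oligopyrimidine (TOP) tract, through which mTOR signalling sets how well they are translated. Growing and dividing cells make many ribosomes, and neural progenitors and young neurons carry high levels of these mRNAs. The subunits are assembled in the nucleolus with the help of dedicated assembly factors and small nucleolar RNAs.

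The tissue was the dLGN (dorsal lateral geniculate nucleus), which passes retinal signals on to the cortex. It came from C57BL/6J wild-type mice of both sexes kept in standard housing, the only treatment group. The ages were embryonic day 18 (E18) and postnatal days 4, 10, 16, 20, 27 and 32 (P4 to P32), with 4 mice per age as separate libraries, 28 in all. The tissue was microdissected from slices and its RNA depleted of ribosomal RNA, so the mRNAs of the ribosomal proteins, not ribosomes, were measured. Libraries are named below by age and by the number, 3 to 6, in the header of their count column; the sex of each animal is not used here.

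Library totals ran from 8224851 to 40206549 reads, and mitochondrial genes took 1.37% to 21.8% of them. The summed level of 6 relay neuron and thalamus markers was between 639.9 and 2068 CPM (counts scaled to the library size) at P32 and between 1566 and 2329 CPM at E18. Of these 6 genes, 3 fell and 1 rose between E18 and P32, with log2 fold changes from -1.73 to 1.56. Markers of other cells moved with age: 5 genes of immature neurons and progenitors summed to 69.9 to 102 CPM at P32, against 1702 to 2692 CPM at E18, and all 5 fell. The 4 oligodendrocyte markers summed to 9212 to 14490 CPM at P32, against 37.5 to 70.8 CPM at E18, and all 4 rose. The 4 red blood cell genes summed to 56.5 to 88.3 CPM at P32, against 195.5 to 571.6 CPM at E18, where number 4 was the highest, and 3 fell. The 3 choroid plexus and ependyma genes summed to 3.96 to 20.04 CPM at P32, against 134.2 to 1018 CPM at E18, and 2 fell; all 3 tested cortex and hippocampus genes fell too. The 3 inhibitory neuron markers were at 2206 CPM in P32 number 3, against 313.7 to 334.6 CPM in the other libraries of that age. Number 3 was also the highest for them at P16, P20 and P27, at 1050, 1897 and 819 CPM. It was the lowest for the relay markers from P16 to P32, at 746.5, 670.3, 951.5 and 639.9 CPM. P27 number 6 had the fewest detected genes (16938, against up to 24149). In bulk tissue, fewer cells of a type and less RNA per cell cannot be told apart, and the part of cell composition in the results below was not tested.

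The sequence around the start of the gene is shown first because the TOP tract is the feature that these genes are known to share. Of the 79 members, 59 had an entry among the RefSeq promoters (GRCm38.p6). The lines below give 40 bases before and 20 bases from the annotated start, on the gene's strand. They show 5 members with large fitted falls over development, then Rpl15, and then 3 with smaller fitted falls. In the fit of all 28 libraries, Rps6 was called lower at P32 than at E18, and Rps27 and Rps27l were not called. Capitals mark runs of 5 or more C or T. The windows are chr10:128626487-128626546 (minus strand) for Rps26, chr2:39005112-39005171 (minus) for Rpl35, chr8:123102310-123102369 (plus) for Rpl13, chr5:115559427-115559486 (plus) for Rplp0 and chr9:120127726-120127785 (plus) for Rpsa. Those of the others are chr14:18270967-18271026 (minus) for Rpl15, chr3:90213629-90213688 (minus) for Rps27, chr9:66946046-66946105 (plus) for Rps27l and chr4:86857348-86857407 (minus) for Rps6.
Rps26: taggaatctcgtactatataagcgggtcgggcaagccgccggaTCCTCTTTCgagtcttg
Rpl35: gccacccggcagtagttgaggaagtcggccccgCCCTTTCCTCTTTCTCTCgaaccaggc
Rpl13: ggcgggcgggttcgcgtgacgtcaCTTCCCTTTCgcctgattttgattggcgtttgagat
Rplp0: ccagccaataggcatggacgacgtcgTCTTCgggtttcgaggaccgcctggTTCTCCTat
Rpsa: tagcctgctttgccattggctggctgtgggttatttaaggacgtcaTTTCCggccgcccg
Rpl15: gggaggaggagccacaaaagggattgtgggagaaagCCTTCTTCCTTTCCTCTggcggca
Rps27: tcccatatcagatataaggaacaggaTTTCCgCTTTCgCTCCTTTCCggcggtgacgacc
Rps27l: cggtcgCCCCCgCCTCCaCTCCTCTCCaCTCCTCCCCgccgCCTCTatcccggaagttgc
Rps6: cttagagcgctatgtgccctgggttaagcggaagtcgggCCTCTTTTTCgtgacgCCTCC

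A run of at least 8 C or T lay within 50 bases of an annotated start in 51 of the 59 members (86.4%), against 39.3% of 27025 genes with a promoter in the same table. The letters CCGGAAG, a core bound by ETS factors, were found on either strand of the promoter (250 bases before to 50 after the start) in 25 of 59 members (42.4%), against 9.93% of genes. TATAAA on the gene's strand was found in 5 members (8.47%), against 9.77% of genes. A gene with several listed promoters counted if any of them matched, for members and for all genes. At the starts printed above, the longest run within 50 bases was 7 for Rplp0 and for Rpsa. These are matches of letters, not measured sites. Both Rps26, with the largest fitted fall, and Rps27, with no called change, have a pyrimidine run near the start in the lines above.

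The summed level of the members was highest at E18 and had fallen by P32. Levels are CPM with trimmed-mean-of-M-values (TMM) factors of all 28 libraries scaled together. In numbers 3, 4, 5 and 6 the sum was 3679, 8962, 4231 and 5205 CPM at E18, and 3326, 6112, 2929 and 4789 CPM at P4. It was 1831, 3257, 2669 and 2898 CPM at P10, and 1386, 1859, 2448 and 2416 CPM at P16. Each numbered library was thus lower than the same number at the age before it through these 4 ages, while libraries of neighbouring ages overlapped. From then on the sum showed no steady course. It was 1360, 1584, 2764 and 1497 CPM at P20, then 1691, 2162, 2497 and 2734 CPM at P27, and 1624, 2248, 2464 and 2030 CPM at P32. Number 3 was the lowest library at 6 of 7 ages, all but P4, and the part of its marker levels in this was not tested.

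The age means were 5519 ± 2380 CPM at E18, 4289 ± 1455 at P4, 2664 ± 605.5 at P10, 2027 ± 505.9 at P16, 1801 ± 648.8 at P20, 2271 ± 452.1 at P27 and 2091 ± 358.5 at P32 (SD, n = 4 each). All P32 libraries lay below all E18 libraries, and the mean was 2.64-fold lower at P32 than at E18. Number 4 at E18 was the highest of all libraries, and without the libraries numbered 4 the mean was 2.14-fold lower. As a share of all reads the members took 0.202% ± 0.0275 at P32, against 0.630% ± 0.247 at E18. No test was made on the sum, since the members were chosen with earlier results known. The mitochondrial share was higher at P32, at 4.85% to 11.1%, than at E18, at 1.37% to 4.03%. It reached 19.7% in P20 number 3 and 21.8% in P27 number 6, and its part was not tested.

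**Figure D1:**
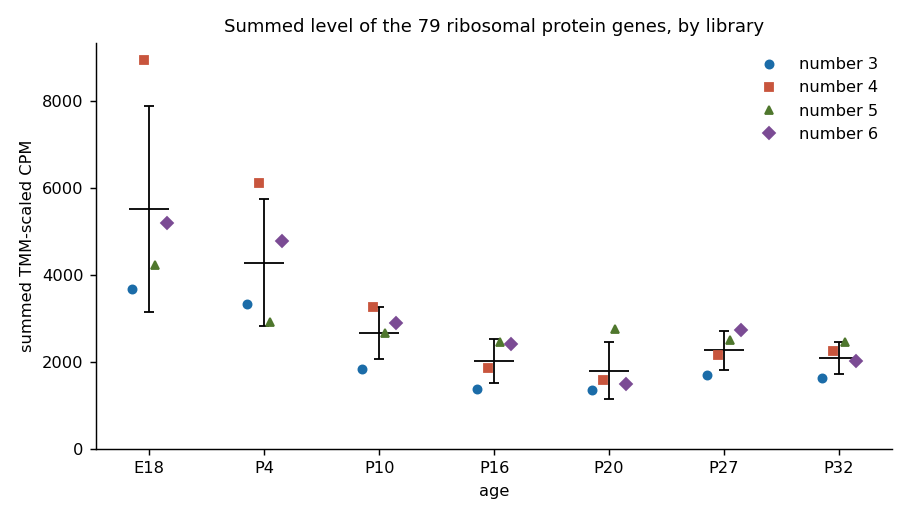
Summed TMM-scaled CPM of the 79 genes (vertical axis) in each of the 28 libraries by age (horizontal axis), with markers by column number and black bars for the mean and SD of 4 libraries. The means run from 5519 CPM at E18 to 1801 CPM at P20, with E18 number 4 at 8962 CPM and P20 number 5 at 2764 CPM above the others of their age.

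Most single members had the same course. Of the 78 members listed at all ages, the age mean was highest at E18 for 67 and lowest at P20 for 42, at P32 for 14 and at P16 for 13. Age means fell at each of the first steps, E18 to P4 to P10 to P16, for 63 of the 78. The median member stood at 76.5% of its E18 mean at P4, 52.5% at P10, 39.6% at P16, 36.1% at P20, 43.0% at P27 and 41.1% at P32.

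The genes of both subunits were lower at P32. The large subunit summed to 1245 ± 214.8 CPM at P32, against 3196 ± 1371 CPM at E18, a 2.57-fold lower mean. The small subunit summed to 846.5 ± 144.2 CPM at P32, against 2324 ± 1014 CPM at E18, a 2.75-fold lower mean (SD, n = 4 each). Both sets of P32 libraries lay wholly below their E18 libraries.

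The ratio of large to small subunit sums was 1.38 ± 0.0887 at E18, 1.43 ± 0.110 at P4, 1.58 ± 0.0888 at P10, 1.53 ± 0.0333 at P16, 1.49 ± 0.0504 at P20, 1.504 ± 0.0692 at P27 and 1.47 ± 0.0286 at P32 (SD, n = 4 each). It was higher at P10 than at P4 in all 4 numbers, although the libraries of both ages overlapped. Between P32 and E18 it overlapped and was higher at P32 in 3 of 4 numbers. The small subunit sum was lower in every P10 library than in any P4 library, at 1036 ± 248.9 CPM at P10 and 1764 ± 596.4 CPM at P4, while the large subunit libraries of these ages overlapped. The log2 ratio at P32 was 0.56, and 0.45 without the 5 members of highest mean count.

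**Figure D2:**
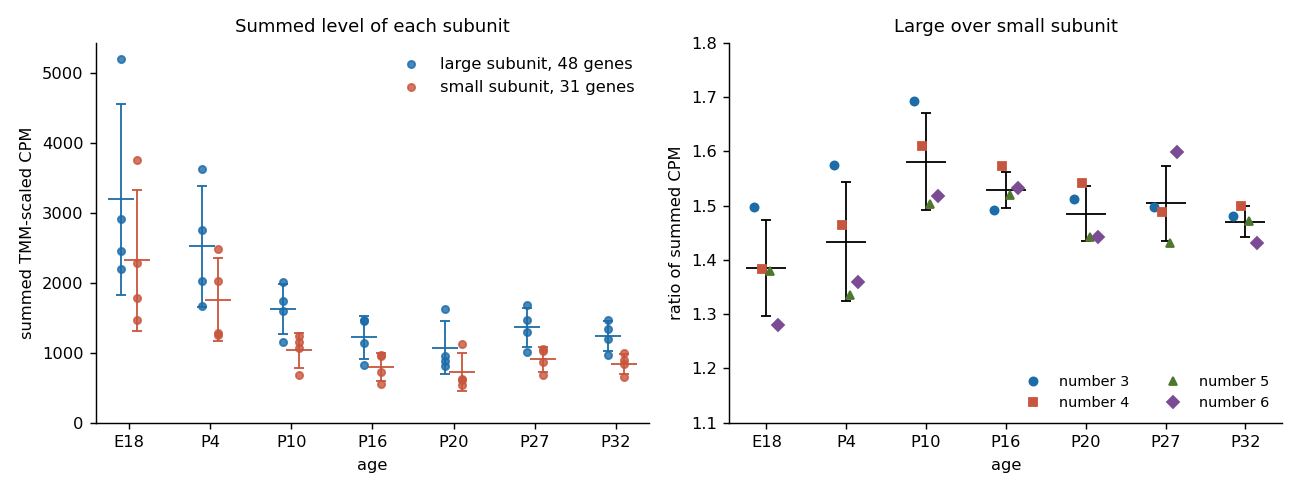
Left, summed TMM-scaled CPM of the 48 large and 31 small subunit genes in each library by age, with bars for mean and SD of 4. Right, ratio of the large to the small subunit sum in each library, on an axis that starts above 0; the age means lie between 1.38 at E18 and 1.58 at P10.

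Over the whole course, 57 members fell and 1 rose between E18 and P32 among 77 tested by edgeR's quasi-likelihood test on all 28 libraries (adjusted p under 0.05), against 24.1% of all 19949 genes tested that fell and 23.4% that rose. The median log2 fold change of the members was -1.28, against -0.04 for all genes. All 4 P32 libraries lay below all 4 E18 libraries for 49 members (22.1% of all genes), and above them for 1 (20.6% of all genes). Of the 55 members with a mean of at least 5 CPM, 51 fell, and of the 22 tested below that level 6 fell and 1 rose. By subunit, 36 of 47 large and 21 of 30 small subunit genes fell, with medians of -1.28 and -1.29. The count depended on the libraries numbered 4. Without E18 number 4 it was 41 (21.1% of all genes lower), and without P32 number 3, which stood apart in its inhibitory neuron markers, it was 48 (21.1% of all genes lower). Without all libraries numbered 4, an alternative chosen after seeing the data, 32 of 77 members fell (41.6%), against 17.6% of all genes lower and 21.5% higher in the same fit. A difference of any kind over the 7 ages was called for 54 of 77 members (70.1%), against 51% of all genes. Without the libraries numbered 4 it was called for 30 members (39%), against 41.2% of all genes, so the members' share was then near that of all genes.

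Rps26, a small subunit protein at the channel where mRNA leaves the ribosome, had the largest fitted fall. It was at 11.1, 21.1, 7.69 and 9.75 CPM in the P32 libraries numbered 3, 4, 5 and 6, against 41.5, 166.6, 22.7 and 41.9 CPM at E18. The groups did not overlap, and number 4 was the highest at both ages. The log2 fold change was -2.46 ± 0.61 (SE, edgeR, adjusted p = 0.00148), 5.49-fold lower at P32.

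Rpsa, which is also known as the laminin receptor, was at 20.1, 16.9, 21.4 and 19.5 CPM at P32, against 49.8, 96.8, 67.3 and 76.9 CPM at E18. The P32 libraries lay close together, and all were under the lowest E18 library. Its log2 fold change was -1.90 ± 0.30 (SE, edgeR, adjusted p = 6.61e-06).

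Rps2, a protein of the mRNA entry side, was at 19.5, 26.2, 29.1 and 25.3 CPM at P32, against 62.8, 119, 70.5 and 99.1 CPM at E18, a log2 fold change of -1.81 ± 0.29 (SE, edgeR, adjusted p = 6.81e-06). Rps4x, which is encoded on the X chromosome, was at 34.2, 39.9, 60.2 and 52.3 CPM at P32, against 95.7, 215.6, 123.2 and 238.7 CPM at E18, a log2 fold change of -1.85 ± 0.30 (SE, edgeR, adjusted p = 9.29e-06). For both of these the P32 and E18 libraries did not overlap.

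The stalk of the large subunit, which recruits the elongation factors, is made of Rplp0 at its base and of the acidic proteins Rplp1 and Rplp2. Rplp0 was at 58.6, 69.6, 94.9 and 61.7 CPM at P32, against 223.8, 467.4, 267.4 and 178 CPM at E18, a log2 fold change of -2.0 ± 0.31 (SE, edgeR, adjusted p = 4.30e-06). Rplp1 was at 76.1, 115.7, 108 and 128.6 CPM at P32, against 155.5, 410.7, 166.3 and 272.9 CPM at E18, a log2 fold change of -1.23 ± 0.34 (SE, edgeR, adjusted p = 0.00368). Rplp2 was at 16.1, 26.5, 21.3 and 16.4 CPM at P32, against 46.1, 104.4, 45.9 and 48.6 CPM at E18, a log2 fold change of -1.61 ± 0.30 (SE, edgeR, adjusted p = 6.04e-05). All stalk genes fell with no overlap between ages, and the Rplp1 call was lost without the libraries numbered 4. Whether the Rplp0 fall differs from the Rplp1 fall was not tested.

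Rpl35, at the mouth of the tunnel through which the new protein leaves, was at 6.69, 7.85, 10.3 and 10.6 CPM at P32, against 24.9, 65.8, 24.4 and 50.8 CPM at E18, a log2 fold change of -2.23 ± 0.35 (SE, edgeR, adjusted p = 7.13e-06). Rpl15 was at 31.3, 24.9, 47.9 and 27.6 CPM at P32, against 103.1, 94.9, 99.6 and 138.2 CPM at E18, a log2 fold change of -1.73 ± 0.25 (SE, edgeR, adjusted p = 1.69e-06). Its E18 libraries lay close together, and number 4 was the lowest of them, so its fall does not rest on that library. Rpl32 was at 26.1, 33.0, 48.3 and 28.9 CPM at P32, against 83.5, 226.1, 91.2 and 81.2 CPM at E18, a log2 fold change of -1.82 ± 0.36 (SE, edgeR, adjusted p = 0.000151).

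Rpl13 overlapped between the ages despite a fitted log2 fold change of -2.05 ± 0.59 (SE, edgeR, adjusted p = 0.00541). It was at 3.43, 7.67, 11.9 and 12.8 CPM at P32, against 8.31, 40.3, 16.7 and 82.3 CPM at E18. Number 6 was the highest library for Rpl13 at E18, P4, P10, P16 and P32. Its call was lost without E18 number 6 (adjusted p = 0.0702, edgeR).

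**Figure D3:**
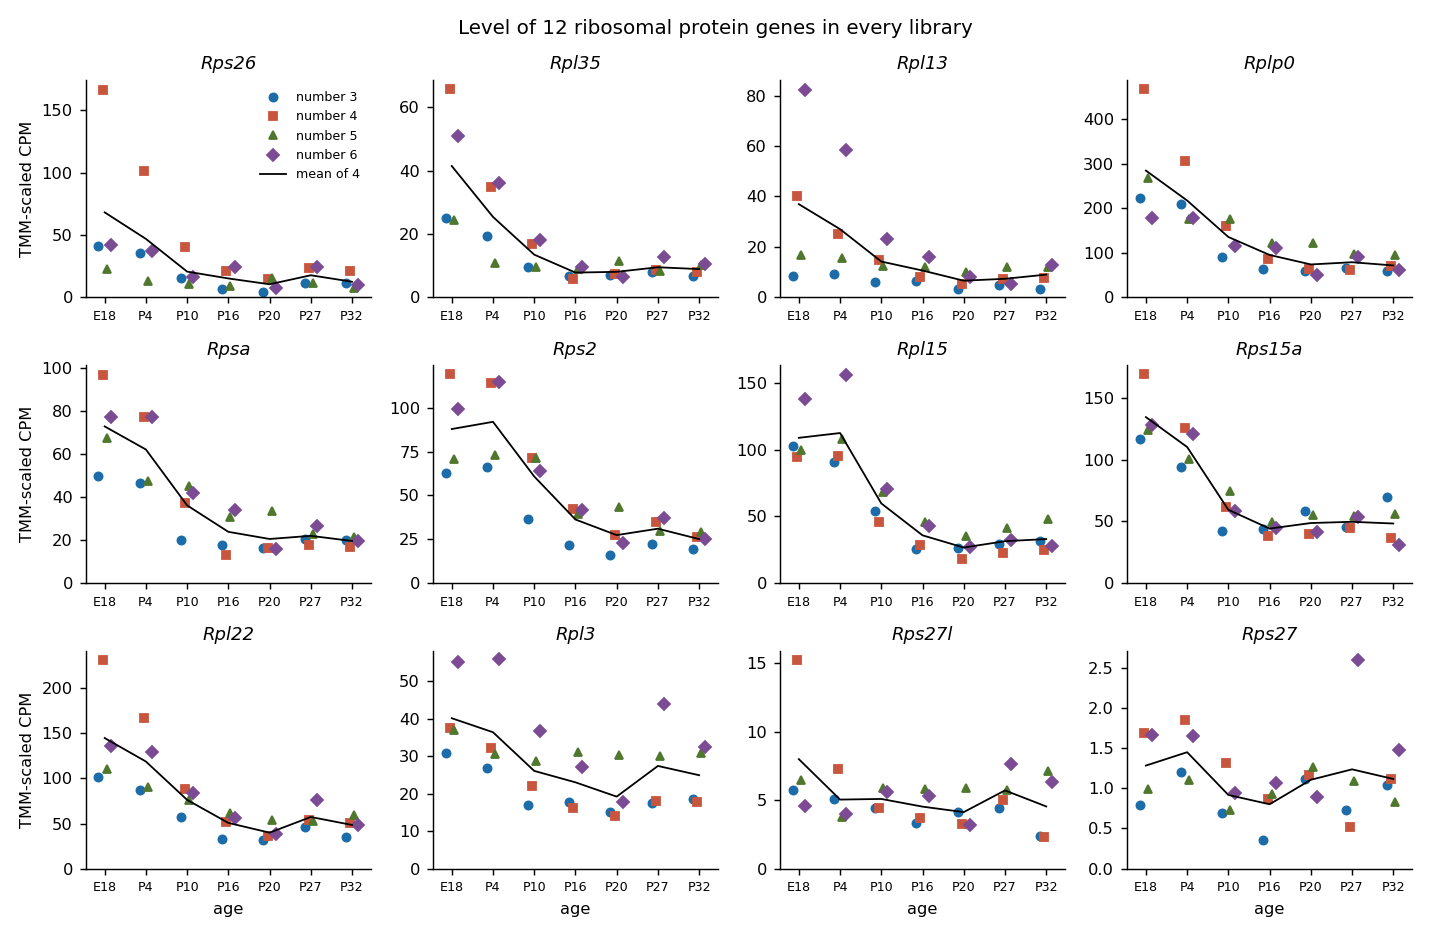
TMM-scaled CPM (vertical axis, a scale for each panel) of 12 members in each library by age, with markers by column number and a line through the means of 4. At P16 the means in the top and second rows are between 18.8% (Rpl35) and 41.2% (Rps2) of E18. The mean of Rps27, whose libraries are at 0.353 to 2.59 CPM, is 62.5% of E18 at P16 and 87.0% at P32.

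Members of highest level per length included Rplp1 (308.6 CPM per kb over all libraries), Rps14 (188.7) and Rpl8 (184.9). Rps14, of the platform of the small subunit, averaged 86.3 ± 22.2 CPM at P32 and 211.7 ± 95.7 CPM at E18 (SD, n = 4 each), a log2 fold change of -1.30 ± 0.35 (SE, edgeR, adjusted p = 0.00351). The Rps14 call was lost without the libraries numbered 4 (adjusted p = 0.0831, edgeR). Rpl8, near the peptidyl transferase centre, averaged 118.3 ± 15.9 CPM at P32 and 294.9 ± 128.3 CPM at E18 (SD, n = 4 each), a log2 fold change of -1.32 ± 0.27 (SE, edgeR, adjusted p = 0.000189). Rpl22, a protein of the large subunit with the paralog Rpl22l1, averaged 48.4 ± 10.3 CPM at P32 and 144.7 ± 59.3 CPM at E18, a log2 fold change of -1.58 ± 0.26 (SE, edgeR, adjusted p = 1.36e-05). Rpl22l1 itself averaged 11.6 ± 2.91 CPM at P32 and 18 ± 9.86 CPM at E18 and was not called, with a log2 fold change of -0.64 ± 0.33 (SE, edgeR, adjusted p = 0.117). Of the 3 tested paralogs outside the rule 1 fell, Rpl7l1, named after its value was seen (log2 fold change -0.54 ± 0.19, SE, edgeR, adjusted p = 0.0223).

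The paralogs gave few reads. Rpl39l, known from testis, had between 0 and 4 reads per library and Rpl3l, known from heart and skeletal muscle, between 0 and 17, so neither allows a statement on age. Over all libraries Rpl3l was at 0.143 CPM per kb and its partner Rpl3 at 18.3 CPM per kb. Rpl3, near the peptidyl transferase centre, was at 18.6, 17.9, 30.8 and 32.4 CPM at P32, against 31, 37.6, 36.9 and 55.0 CPM at E18. Its groups overlapped, and the log2 fold change of -0.69 ± 0.32 was not called (SE, edgeR, adjusted p = 0.0799). Rpl3 was called lower with total-count scaling (adjusted p = 0.0157, edgeR) and with the replicate number as a block (adjusted p = 0.00176, edgeR). Rpl39, of the exit tunnel, fell by 1.47 on the log2 scale (SE 0.41, edgeR, adjusted p = 0.00416), but its E18 number 4 at 87.1 CPM was far above the others of that age at 22.9 to 25.8 CPM, and without that library the call was lost (adjusted p = 0.0939, edgeR).

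Rps27l, a p53-induced paralog, averaged 4.55 ± 2.54 CPM at P32 and 8.01 ± 4.89 CPM at E18 (SD, n = 4 each) and was not called (log2 fold change -0.82 ± 0.37, SE, edgeR, adjusted p = 0.0723). Rps27l was called lower by DESeq2 (adjusted p = 0.0419) and with total-count scaling (adjusted p = 0.0167, edgeR). It was also called lower without E18 number 6 or without P32 number 5 (adjusted p up to 0.0401, edgeR). Its partner Rps27 averaged 1.12 ± 0.269 CPM at P32 and 1.28 ± 0.462 CPM at E18, with a log2 fold change of -0.19 ± 0.44 (SE, edgeR, adjusted p = 0.751). Over all libraries the paralog was at 8.82 CPM per kb and Rps27 at 1.97 CPM per kb. Of the windows along the transcript (described below), 63.1% also occur at another locus for Rps27 and 13.7% for Rps27l. The part of this difference in the levels of Rps27 and Rps27l was not tested, so the levels do not rank these genes.

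Some members were listed at levels far under the rest. Rps6, the substrate of S6 kinase, averaged 2.54 ± 1.16 CPM at P32 and 4.66 ± 2.10 CPM at E18 (log2 fold change -0.89 ± 0.33, SE, edgeR, adjusted p = 0.0288). The Rps6 call was lost in a fit of the 8 libraries of these ages (adjusted p = 0.109, edgeR). It was also lost without E18 number 4 (adjusted p = 0.1945, edgeR) or without any one of P32 numbers 3, 4 and 6. Without all libraries numbered 4 the adjusted p was 0.381 (edgeR). Rpl10, which is X-linked and sits near the P site, averaged 0.508 ± 0.277 CPM at P32 and 2.41 ± 0.716 CPM at E18 (log2 fold change -2.24 ± 0.41, SE, edgeR, adjusted p = 5.84e-05). Rps27a, which is made as a fusion to ubiquitin, averaged 1.35 ± 0.470 CPM at P32 and 1.8 ± 0.443 CPM at E18 and was not called (log2 fold change -0.41 ± 0.40, SE, edgeR, adjusted p = 0.414). Over the 79 members the level per length ranged from 0.0330 CPM per kb for Rpl39l to 308.6 for Rplp1, and 24 were above 50 CPM per kb. These levels are what the deposited counting assigned to each gene.

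Ribosomal protein genes have many processed pseudogenes, so reads can match several places. Windows of 50 bases along the longest protein-coding transcript of each member (GENCODE M21) were searched for exact copies at other loci. The 21 members with 60% or more of windows shared had a median level of 6.51 CPM per kb, the 41 with 20% to under 60% one of 23.3, and the 17 with under 20% one of 54.2. Across the 79 genes the log2 level per length and the share of windows gave r = -0.20 and rho = -0.30, as a description over genes that are not independent. Rpl10 (85.4% shared), Rps6 (84.6%) and Rps27 (63.1%) were low, but Rplp1 (60%) was the highest of all per length. The median log2 fold changes between P32 and E18 in the same 3 classes were -1.23, -1.31 and -1.26. In that order 13 of 21, 31 of 40 and 13 of 16 tested members fell, against 24.1% of all genes. The 1 member that rose was in the first class (23.4% of all genes rose). Over 77 members the fold change gave r = 0.05 and rho = 0.06 with the share of windows. With the log2 level per length it gave r = -0.47 and rho = -0.44. The treatment of reads with several matches is not stated in the labels, and its part in the levels and fold changes was not tested.

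**Figure D4:**
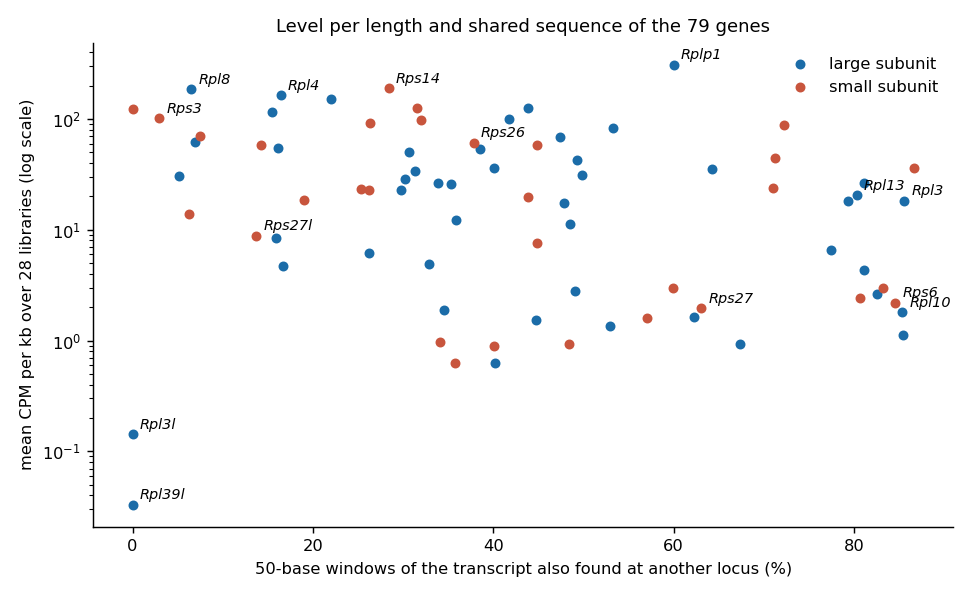
Mean CPM per kb over the 28 libraries (log axis) of each member against the percent of 50-base windows of its transcript that also occur at another locus, coloured by subunit. Levels spread from 0.0330 (Rpl39l) to 308.6 CPM per kb (Rplp1), and members with few shared windows include both the paralogs near the bottom and Rpl8, Rpl4 and Rps3 near the top.

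Rpl23a, a protein at the exit tunnel, was the exception among the calls; it fell outside the rule for named genes because of its low level and is named after its values were seen. It was at 1.67, 2.10, 2.49 and 2.07 CPM at P32, against 0.936, 1.39, 1.27 and 1.27 CPM at E18. The groups did not overlap, and the log2 fold change was 0.77 ± 0.29 (SE, edgeR, adjusted p = 0.0293). With total-count scaling, in a fit of the 8 libraries of these ages, without E18 number 3 or without P32 number 5 it was not called. The share of its windows found elsewhere was 82.6%.

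Between adjacent ages, few single members were called by edgeR with TMM factors and no block. With the replicate number as a block, more were called lower in P4 against E18, P10 against P4 and P16 against P10, as were more of all genes. At P4 against E18 no member of 76 tested was called by edgeR, against 3.12% of all genes lower and 4.75% higher. The count was also 0 at an unadjusted p under 0.05 (edgeR), against 3953 of all 18797 genes, and 0 by DESeq2. The median log2 fold change was -0.38, and 68 members had a fold change below 0. Same-numbered libraries of these ages deviated together, and with the replicate number as a block 24 members fell and 0 rose (13.6% of all genes lower and 15.8% higher with the block). With the block, Rpl35 fell by 0.70 (SE 0.13, edgeR, adjusted p = 0.00191) and Rps26 by 0.45 (SE 0.11, edgeR, adjusted p = 0.0131) on the log2 scale, while Rpl15, at 112.6 ± 30.0 CPM at P4 and 109 ± 19.8 CPM at E18 (SD, n = 4 each), had a log2 fold change of 0.04 ± 0.09 (SE, edgeR, adjusted p = 0.771).

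At P10 against P4, 4 members fell and 1 rose of 73 tested by edgeR, against 8.16% of all genes lower and 10.3% higher. DESeq2 called 15 lower (11.3% of all genes) and total-count scaling 12 lower (9.57%). The median of the members was -0.59. Rpl15 was at 54.4, 45.7, 68.1 and 70.7 CPM at P10, against 91.1, 95.2, 107.8 and 156.4 CPM at P4, a log2 fold change of -0.89 ± 0.20 (SE, edgeR, adjusted p = 0.00985). Rps15a, a small subunit protein, was at 42.5, 61.9, 75.0 and 58.2 CPM at P10, against 93.9, 126.2, 100.5 and 121.1 CPM at P4, a log2 fold change of -0.88 ± 0.18 (SE, edgeR, adjusted p = 0.00594). Neither gene overlapped between the ages.

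Rps4x averaged 68.7 ± 17.9 CPM at P10 and 128.8 ± 40.1 CPM at P4 (log2 fold change -0.89 ± 0.25, SE, edgeR, adjusted p = 0.0264). The Rps4x call was lost without any one of P4 number 6 and P10 numbers 3 and 4 (adjusted p up to 0.0890, edgeR). It was also lost without both libraries numbered 4 (adjusted p = 0.0914, edgeR). Rpl23a was the member that rose, at 2.80, 1.84, 2.78 and 2.78 CPM at P10, against 1.21, 1.75, 1.16 and 1.23 CPM at P4 (log2 fold change 0.99 ± 0.30, SE, edgeR, adjusted p = 0.0379). With the replicate number as a block, 43 members fell and 1 rose (18.1% of all genes lower and 18% higher with the block), among them all of the stalk genes, Rps26 and Rpl35. Without P4 number 3 the count of members that fell was 10 and without P4 number 5 it was 21. The shares of all genes in these fits are not given here, so the counts cannot be set against them. The call of Rpl23a was lost without any one of P4 numbers 3, 5 and 6 or P10 numbers 3, 5 and 6.

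At P16 against P10, 1 member of 70 tested fell by edgeR, Rpl15, and 0 rose, against 5.65% of all genes lower and 6.2% higher. DESeq2 called 4 lower (7.85% of all genes) and total-count scaling 4 (7.08%). Rpl15 was at 25.6, 28.7, 45.7 and 43.0 CPM at P16, against 54.4, 45.7, 68.1 and 70.7 CPM at P10, a log2 fold change of -0.76 ± 0.22 (SE, edgeR, adjusted p = 0.0385). The highest P16 and the lowest P10 library were both at 45.7 CPM. The median of the members was -0.35, and 67 of 70 fold changes were below 0. The Rpl15 call was lost without any one of P10 numbers 3, 5 and 6 or P16 numbers 3 and 4 (adjusted p up to 0.128, edgeR).

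After P16 no change was called. At P20 against P16, P27 against P20 and P32 against P27, edgeR called 0 of 72, 73 and 72 members tested, and also 0 of all genes. At an unadjusted p under 0.05 (edgeR) the counts of members were 1, 2 and 0, and DESeq2 called 0 in each. The unadjusted counts over all genes were 485 of 17949, 476 of 18070 and 73 of 17856. The median log2 fold changes were -0.14, 0.29 and -0.11, and in P27 against P20 59 of 73 fold changes were above 0. Among the members of at least 5 CPM 52 of 55 were above 0 there, with a median of 0.32, but the summed level was lower at P27 in number 5 and the libraries of both ages overlapped. Number 6 was the highest P27 library, at 2734 CPM, against 1497 CPM at P20. That P27 library had the fewest detected genes of all (16938) and 21.8% mitochondrial reads, and its part was not tested.

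**Figure D5:**
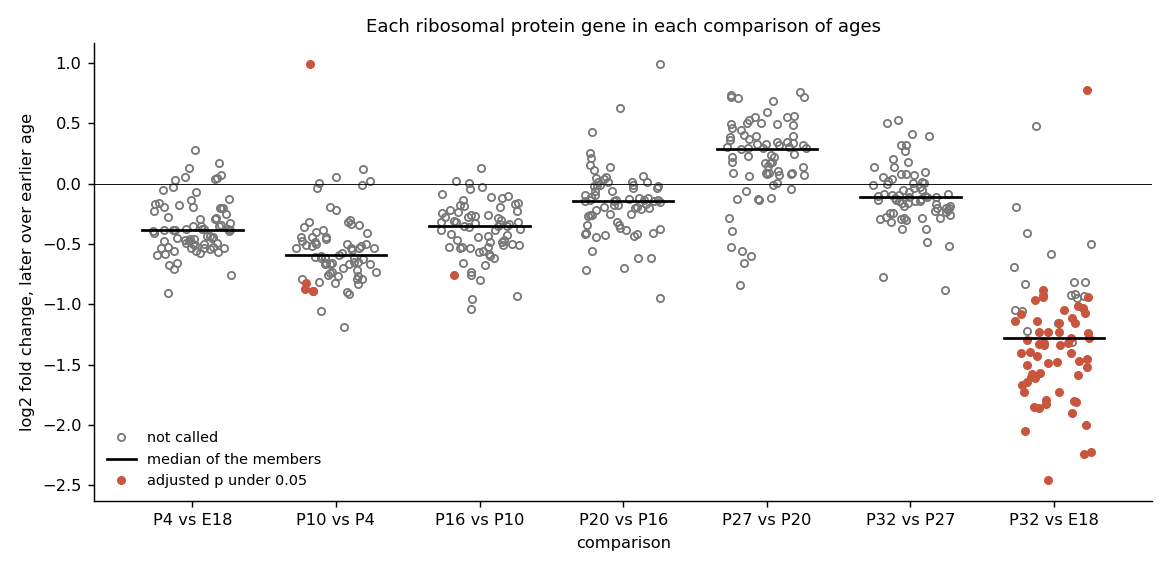
Log2 fold change, later over earlier age, of each tested member (points) in the 6 comparisons of adjacent ages and in P32 against E18, with filled points for an adjusted p under 0.05 and a black line at the median of the members. In these fits without a replicate block, calls are few between adjacent ages and 58 in P32 against E18, where the median is -1.28.

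Other genes of translation were read from the same fits. Of 19 tested translation factors and other genes with TOP mRNAs, 13 fell between E18 and P32 and 0 rose, against 24.1% of all genes lower and 23.4% higher in this comparison, and the median log2 fold change was -0.96. Eef1a1, the elongation factor of most cells and a TOP mRNA, averaged 465.1 ± 75.9 CPM at P32 and 1420 ± 383.5 CPM at E18 (SD, n = 4 each), a log2 fold change of -1.61 ± 0.24 (SE, edgeR, adjusted p = 2.27e-06). Its neuronal and muscle counterpart Eef1a2 went the other way, at 570.2 ± 96.6 CPM at P32 and 103.7 ± 21.6 CPM at E18, a log2 fold change of 2.46 ± 0.24 (SE, edgeR, adjusted p = 2.26e-09). Eef1a2 rose already at P4 against E18 (log2 fold change 0.97 ± 0.21, SE, edgeR, adjusted p = 0.0188) and again at P10 against P4 (0.91 ± 0.19, SE, adjusted p = 0.00739). Eef2, the translocation factor, fell by 0.56 on the log2 scale (SE 0.21, edgeR, adjusted p = 0.0290), and Gnb2l1, a protein of the small subunit head, by 1.74 (SE 0.26, edgeR, adjusted p = 2.76e-06).

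Of 36 genes of ribosome assembly and ribosomal RNA synthesis, 17 fell and 1 rose (Sbds, named after its value was seen), against 24.1% and 23.4% of all genes, with a median of -0.57. Npm1, a nucleolar chaperone, which stands in the list of TOP mRNAs, averaged 39.8 ± 8.78 CPM at P32 and 99.4 ± 51.7 CPM at E18 (log2 fold change -1.32 ± 0.26, SE, edgeR, adjusted p = 0.000162). Nhp2 and Nop58, core proteins of small nucleolar particles, fell by 1.52 (SE 0.39, edgeR, adjusted p = 0.00213) and 1.48 on the log2 scale (SE 0.19, edgeR, adjusted p = 2.98e-07) and Ncl, nucleolin, by 0.55 (SE 0.21, edgeR, adjusted p = 0.0296). Fbl, fibrillarin, was at 1.47 ± 0.522 CPM at P32 and 2.78 ± 1.13 CPM at E18 and was not called (adjusted p = 0.227, edgeR). Among RNAs that host small nucleolar RNAs, 6 of 8 fell and 0 rose, against 24.1% and 23.4% of all genes, and the median was -1.09. Gas5, a host whose RNA carries a TOP tract, averaged 31.8 ± 6.16 CPM at P32 and 72.4 ± 34.0 CPM at E18 (log2 fold change -1.19 ± 0.26, SE, edgeR, adjusted p = 0.000348).

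The list of mTOR signalling and TOP mRNA regulators had 3 of 17 lower and 3 higher, neither above the 24.1% and 23.4% of all genes, and a median of -0.07. The 3 lower were Myc and Mycn, transcription factors that drive ribosome synthesis, and Eif4ebp2, a repressor of cap-dependent translation. Myc fell by 3.42 (SE 0.41, edgeR, adjusted p = 8.63e-08) and Mycn by 2.72 (SE 0.30, edgeR, adjusted p = 2.55e-08) on the log2 scale. The 3 higher, named after their values were seen, were Mtor, its partner Rptor and the mTOR inhibitor Deptor, the last with a log2 fold change of 2.59 ± 0.29 (SE, edgeR, adjusted p = 2.01e-08). Set beside the 57 lower and 1 higher of 77 tested cytosolic genes, the 77 mitochondrial ribosomal protein genes, which build the separate ribosome of mitochondria, had 13 lower and 2 higher, both under the 24.1% and 23.4% of all genes, with a median of -0.41. That difference between the families is a description of counts and was not tested.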

How the data were processed

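RNA was measured in 28 libraries of mouse dLGN at 7 ages, 4 per age. The authors deposited whole-number read counts per gene and library in 12 tables, a pair for each of 6 comparisons of adjacent ages. The fold ratio and the adjusted p-value in the deposited tables are the authors' own and served only as an alternative. Per the submitters' processing notes, BWA and edgeR 3.14.0 were used with GRCm38 (mm10). No source used here names the counting tool, annotation or strand setting, so overlapping and antisense genes cannot be told apart. A further 96 columns of read density were not used. The tables of a comparison were joined by gene ID, and counts of a library in both of its comparisons were equal in all 471564 cases.

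The counts were tested with edgeR 4.0.16 (R 4.3.3; filterByExpr, TMM factors, quasi-likelihood F test, two-sided, Benjamini-Hochberg over all genes tested, call at adjusted p under 0.05). Adjacent ages were fitted on their 8 libraries, and P32 against E18 and any difference over the 7 ages on all 28, over 22200 genes listed in all 6 comparisons. SE is the log2 fold change divided by the root of F. Levels are CPM with TMM factors of all 28 libraries; a floor of 3 counts corresponds to 0.0746 to 0.365 CPM and covers counting error only. Levels per kb use the deposited gene length. The scripts were tested on simulated counts. Alternatives were relative log expression and total-count scaling, no filter, DESeq2 1.42.0, the replicate block, leaving out each library and, chosen after seeing the data, leaving out the libraries numbered 4 and the authors' adjusted p.

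Column numbers (3 to 6) recur at every age and could not be matched to the replicate numbers of the labels, so libraries are named by column number. Same-numbered libraries deviated together in P4 against E18 (correlations of deviations 0.382 to 0.681) and P10 against P4 (0.194 to 0.550), where every pair passed 0.1, and the blocked counts are given beside those results. Nothing says that a number marks a shared litter or batch.

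The members, gene lists and markers were chosen with earlier results of these data known. Named members are the 4 largest called falls and rises per comparison at a mean of at least 5 CPM (10 for P32 against E18), the paralogs and their partners, Rps6, Rpsa, Rps27a and the stalk genes, and the 3 of highest level per length, with up to 2 leading called genes per other list. Some items that this rule names are not reported here.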

Additional observations from a re-analysis of the deposited data

Results flagged for a closer look

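A library was singled out where its gap to the nearest of the others, over the range of its age, passed Dixon's 95% critical value for 4 values; 11 of 171 groups passed, and chance gives about 1 in 20. E18 number 4 was above its group for Rpl32 (226.1 CPM, others up to 91.2), Rpl39 (87.1 CPM, others up to 25.8), Rplp2 (104.4 CPM, others up to 48.6) and Rps26 (166.6 CPM, others up to 41.9). P20 number 5 was above its group for the summed level (2764 CPM, others up to 1584), Rpl35 (11.5 CPM, others up to 7.18) and Rpsa (33.3 CPM, others up to 16.4).

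P16 number 3 was below its group for Rplp2 (13.4 CPM, others from 22.9) and Rps2 (21.7 CPM, others from 39.1). P27 number 6, the library with the fewest detected genes, was above its group for Rpl35 (12.7 CPM, others up to 8.75). P10 number 5 was above its group for Rpl3l (0.727 CPM, others up to 0.264), a gene of few reads.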

How the results depend on the processing

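Counts of members were recomputed with other settings. The replicate block changed the members lower to 24 in P4 against E18, 43 in P10 against P4 and 15 in P16 against P10 (9.58% of all genes lower with the block); it moved no other count by over 1.5 times. In P16 against P10 and later comparisons, and in P32 against E18 (lowest same-number correlation -0.0357), not every pair passed 0.1, so the numbers are only a hint there. In P10 against P4 the members lower were 12 with total-count scaling, 15 with DESeq2 and 12 in the authors' deposited table, and the member higher was lost (0) with total-count scaling and with no filter. In P16 against P10 the members lower were 4 with total-count scaling, 4 with DESeq2 and 3 in the authors' deposited table. No share of all genes is given for the counts from the authors' tables. In P32 against E18 the member higher was lost (0) with total-count scaling and in the fit of 8 libraries. Total-count scaling moved the median of all genes in P32 against E18 to -0.28 and the split of all calls to 3498 higher and 6364 lower, against 4661 and 4805 with TMM; 63 members were then lower. Without the libraries numbered 4 the members lower in P32 against E18 were 32 (17.6% of all genes) and those changed over 7 ages 30 (41.2% of all genes). The cause of these moves was not tested.

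Leaving out 1 library gave 0 to 1 members higher and 3 to 21 lower in P10 against P4, 0 to 1 lower in P16 against P10, 0 to 1 higher and 41 to 59 lower in P32 against E18, 48 to 57 changed over 7 ages, and 0 in the other adjacent comparisons. The shares of all genes in the same fits are not given beside these ranges. Without the 5 members of highest mean count the summed level was 1889 CPM at P10, 1436 at P16, 1552 at P27 and 1419 at P32. The log2 ratio of large to small subunit was then 0.56 at P10, 0.54 at P16, 0.47 at P20, 0.44 at P27 and 0.45 at P32. No change of sign was found among the called results. Members near 1 CPM rest on few reads, which limits what can be called for them.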
